A study of Mus musculus with 35 samples.

Results

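The inflammasome and pyroptosis machinery was followed through 8 of the 47069 genes in the files. They were chosen by symbol, as the rows whose Ensembl identifiers carry the names Nlrp3, Aim2, Nlrc4, Mefv, Pycard, Casp1, Casp4 and Gsdmd, and all 8 were found, expressed and tested. The cells were bone marrow-derived macrophages (BMDMs) of C57BL/6 mice, grown in medium conditioned by L929 cells and then kept for 24 h with vehicle (DMSO), 100 nM dexamethasone (Dex, a synthetic glucocorticoid), 100 ng/ml lipopolysaccharide (LPS, a bacterial cell wall component), LPS + Dex, 1 µg/ml DAMPs (damage-associated molecular patterns) or DAMPs + Dex. Each treatment was applied to wild-type cells and to cells labelled AMPKa1-/-, with no agent or allele shared by all 12 groups beyond the strain. Of the 12 groups, 11 entered with 3 replicates each and wild-type LPS with those numbered 2 and 3, so that 17 wild-type libraries and 18 labelled AMPKa1-/- entered. The sources used here do not give the allele, the cells in which it is deleted or the make-up of the DAMPs. The study asked how glucocorticoids change macrophages under inflammatory conditions, and the comparisons below put that question to these 8 genes.

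Inflammasomes are protein platforms that macrophages build in the cytosol when a sensor meets a microbial product or a sign of damage. The sensor recruits an adaptor, the adaptor gathers pro-caspase-1, and active caspase-1 cuts the precursors of IL-1β and IL-18 and the pore-forming protein gasdermin D, which opens the membrane in the lytic death called pyroptosis. In macrophages the NLRP3 inflammasome is known to need a priming step, such as LPS acting through Toll-like receptors, that raises the RNA of some components before assembly. Glucocorticoids are known to hold down many LPS-induced genes. RNA levels bear on priming, not on assembly, cleavage or death.

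Among the 8 genes, 4 encode sensors. NLRP3 responds to many disturbances of the cell, AIM2 binds cytosolic double-stranded DNA, NLRC4 works with NAIP proteins that bind flagellin and bacterial secretion proteins, and Mefv encodes pyrin, which responds to inactivation of RhoA. Pycard encodes ASC, the adaptor that links sensors to caspase-1. Casp1 encodes that caspase, and Casp4 encodes mouse caspase-11, which binds cytosolic LPS directly. Gsdmd encodes gasdermin D. On GRCm38 (annotation GENCODE M21), Nlrp3 (ENSMUSG00000032691) lies on the plus strand at chr11:59541568-59566956. Aim2 (ENSMUSG00000037860) lies on the plus strand at chr1:173350879-173466040, a span that overlaps Cadm3 on the minus strand. Nlrc4 (ENSMUSG00000039193) lies on the minus strand at chr17:74425438-74459142, and Mefv (ENSMUSG00000022534) on the minus strand at chr16:3707218-3718097. Pycard (ENSMUSG00000030793) lies on the minus strand at chr7:127989708-127993867 and overlaps Gm45205 on the plus strand. Gsdmd (ENSMUSG00000022575) lies on the plus strand at chr15:75862327-75867408. Casp1 (ENSMUSG00000025888, chr9:5298517-5307265) and Casp4 (ENSMUSG00000033538, chr9:5308828-5336783) are neighbours on the plus strand, 1562 bases apart, and Casp12 follows Casp4 after 8646 bases. The sources used here do not say whether the counting used the strand, so reads of Aim2 and Pycard cannot be told apart from reads of their overlapping partners.

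Sequences of 4 promoters are shown because their genes gave the clearest contrasts below: Casp1 and Casp4, the neighbours that moved together, and Pycard and Mefv, for which Dex did different things with and without LPS. Each is the stretch of up to 250 bases before the gene, 5′ to 3′ on the gene's own strand, from RefSeq on GRCm38.p6, in which 7 of the 8 genes had an entry (Gsdmd was the other). Capitals mark every match, on either strand, to 1 of 4 motifs: an NF-kB motif (GGG, any 2 bases, then TTTCC), an interferon response core (GAAA, any 2 bases, then GAAA), a glucocorticoid response element half-site (AGAACA) and a PU.1 core (AGGAAGTG).
Casp1 promoter, chr9:5298267-5298516, plus strand: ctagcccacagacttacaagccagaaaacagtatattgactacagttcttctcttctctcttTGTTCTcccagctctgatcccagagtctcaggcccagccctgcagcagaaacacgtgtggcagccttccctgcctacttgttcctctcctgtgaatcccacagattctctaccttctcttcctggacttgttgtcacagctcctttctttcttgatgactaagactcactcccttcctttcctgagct
Casp4 promoter, chr9:5308599-5308827, plus strand: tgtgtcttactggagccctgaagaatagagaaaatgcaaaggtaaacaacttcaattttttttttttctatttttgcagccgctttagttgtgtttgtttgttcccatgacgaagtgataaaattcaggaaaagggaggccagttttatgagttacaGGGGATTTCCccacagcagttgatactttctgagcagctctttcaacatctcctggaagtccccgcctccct
Pycard promoter, chr7:127993868-127994117, minus strand: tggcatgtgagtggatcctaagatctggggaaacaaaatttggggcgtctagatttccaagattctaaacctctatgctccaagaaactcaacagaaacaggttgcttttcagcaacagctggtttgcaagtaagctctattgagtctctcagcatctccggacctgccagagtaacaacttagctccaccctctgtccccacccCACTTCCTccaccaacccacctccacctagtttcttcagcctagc
Mefv promoter, chr16:3718125-3718374, minus strand: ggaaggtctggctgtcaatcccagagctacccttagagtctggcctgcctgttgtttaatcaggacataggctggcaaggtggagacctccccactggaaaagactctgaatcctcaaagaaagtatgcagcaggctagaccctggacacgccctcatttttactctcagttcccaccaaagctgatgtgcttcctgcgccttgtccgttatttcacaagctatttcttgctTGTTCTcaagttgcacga

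Casp1 and Mefv each held 1 glucocorticoid half-site in these stretches, and 16.1% of all 32851 RefSeq promoter windows of the same length hold one. Casp4 held 1 NF-kB motif in the stretch shown, a motif found in 1.41% of windows, and a further match nearer its RefSeq start is not printed. Pycard held 1 PU.1 core, found in 3.14% of windows, and so did Aim2 and Nlrc4, while Nlrp3 held none of the 4. The interferon core, present in 2.98% of windows, was found in none of the 7. These letters say nothing of whether a factor was bound.

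The measurements are FPKM, fragments per kilobase of gene and scaled to the fragments of the library. Levels can be compared between genes, since they are per length, whereas between libraries the FPKM of a gene also depends on the share that other genes take. The FPKM of a library summed to 647329 to 939953. The steps that single fragments make in weakly expressed genes put the library totals at 15837203 to 31955298 fragments (median 19973568), so that 1 kb of gene gained 0.0313 to 0.0631 FPKM with each fragment. At that depth, and with the exon lengths of GENCODE M21, Casp1 rested on 1384 to 9150 fragments per library and Nlrp3 on 533 to 7326. Nlrc4 and Mefv were the least sampled, with as few as 58 and 50 fragments, so that their changes carry larger errors. Fold changes are differences of log2(FPKM + 1), which understates the change of low genes. They were tested with limma over 11354 genes and called at a Benjamini-Hochberg adjusted p under 0.05. The study's cultures came from individual mice, but no label ties a library to an animal, and the p-values measure the spread between these libraries.

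The labels were checked first. The glucocorticoid-induced genes Tsc22d3 and Fkbp5 answered Dex in every culture. Fkbp5 stood at 1.60, 1.91 and 2.23 FPKM in wild-type vehicle and at 321, 355 and 346 FPKM with Dex. Il6, an LPS-induced cytokine, stood at 0.0426, 0.0933 and 0.157 FPKM in wild-type vehicle and at 489 and 524 FPKM with LPS. By contrast, Prkaa1, the gene of AMPKα1, did not separate the genotypes: it stood at 15.9, 11.8 and 15.3 FPKM in wild-type vehicle and at 14.8, 16.5 and 15.4 FPKM in vehicle libraries labelled AMPKa1-/-. In none of the 6 treatments was Prkaa1 called different between the genotypes. A value per gene cannot show the loss of part of a transcript, so these libraries are called "labelled AMPKa1-/-". Where a single library is named AMPKa1-/- with its replicate number, that name is the label only. All 9 macrophage markers, Adgre1 and Csf1r among them, were present in every group, and Lyz2 was the most abundant. No gene of the B cell, T and NK cell, mast cell and erythroid lists had a mean of 1 FPKM over all libraries. The B cell marker Cd79b had means of 1.15 FPKM in wild-type vehicle, 2.06 FPKM in DAMPs (2.70 FPKM in the highest library) and 2.11 FPKM in LPS + Dex. With the label AMPKa1-/- its means were 0.568, 1.28 and 1.43 FPKM in the same treatments. Of the 5 stromal markers, 3 had a mean of at least 1 FPKM, with Col1a2 the most abundant, and none of the 5 was at 0 in every library of a group. Their summed level ran from 1.52 to 18.2 FPKM in wild-type vehicle and from 12 to 24.45 FPKM in wild-type Dex, against 1.71 to 3.13 FPKM in vehicle and 3.14 to 4.49 FPKM in Dex with the label AMPKa1-/-. The part of B cell or stromal RNA in the results was not tested.

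In resting wild-type BMDMs Casp1 and Gsdmd had the highest FPKM of the 8 genes. Casp1 stood at 120.4 ± 3.13 FPKM (mean ± SD, n = 3), followed by Gsdmd at 65.6 ± 1.81, Aim2 at 33.2 ± 2.0 and Pycard at 23.9 ± 2.70 FPKM. Casp4 (16.7 ± 2.27) and Nlrp3 (13.6 ± 1.22) were lower and their libraries overlapped, from 14.1 to 18.1 FPKM for Casp4 and from 12.3 to 14.6 FPKM for Nlrp3. Mefv (6.29 ± 1.76) and Nlrc4 (3.12 ± 0.989) had the lowest FPKM. The order of the highest 4 was the same in the vehicle libraries labelled AMPKa1-/-, where Casp1 stood at 109.8 ± 6.92 FPKM and Gsdmd at 58.3 ± 6.02 FPKM.

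**Figure D1:**
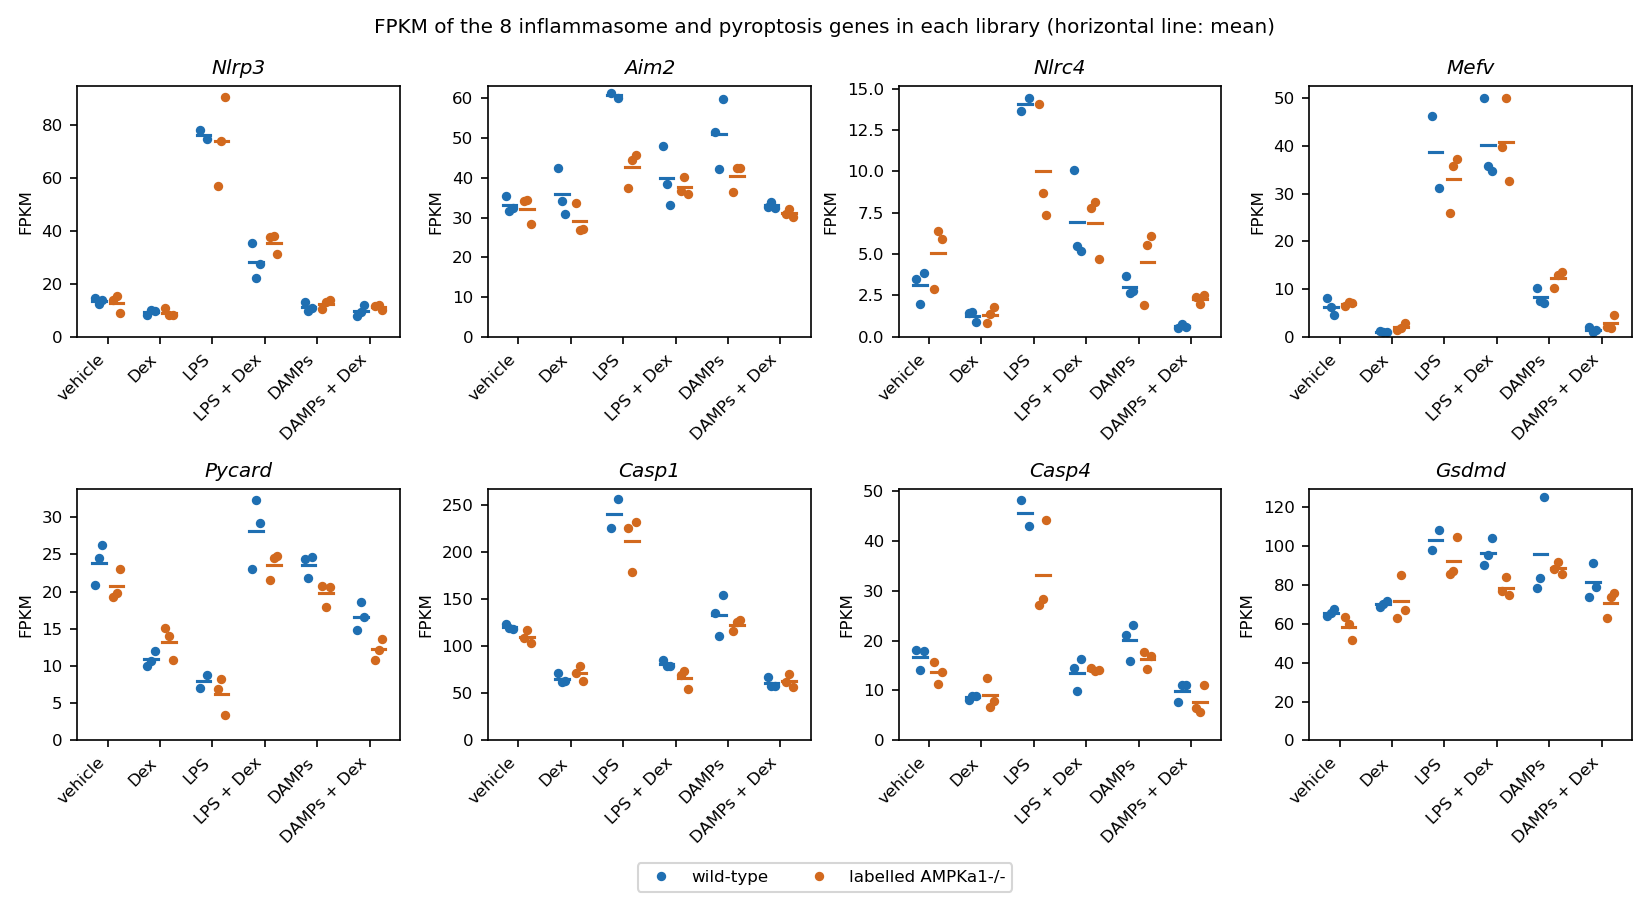
Each panel plots the FPKM of 1 gene in every library (points) with the group mean (line), by treatment on the x axis, for wild-type and for libraries labelled AMPKa1-/-, with each y axis starting at 0 and scaled to its gene. Nlrp3 stands at 74.8 and 78.2 FPKM in wild-type LPS against 12.3 to 14.6 in vehicle, while Pycard is lowest under LPS and back at 23.0 to 32.3 FPKM under LPS + Dex.

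LPS raised 7 of the 8 genes and lowered 1, in both genotypes. In wild-type BMDMs the gain was 5.30-fold for Nlrp3 and 5.46-fold for Mefv, against 1.56-fold for Gsdmd, whereas Pycard fell by 2.79-fold. All 8 were called in each genotype, where the background over all tested genes was 19.9% higher and 35.8% lower in wild-type (55.7% in either direction) and 20.2% higher and 44.1% lower in cells labelled AMPKa1-/- (64.3% in either direction). More genes fell than rose with LPS, and the median log2 change over all genes was -0.19 in wild-type and -0.30 in cells labelled AMPKa1-/-. Relative to that median, Pycard was still lower, by -1.29 and -1.36 on the log2 scale.

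Among the sensors, Nlrp3 moved from 14.6, 12.3 and 14.0 FPKM in wild-type vehicle to 78.2 and 74.8 FPKM with LPS (log2 2.41, SE 0.21, limma adjusted p = 8.55e-11). The libraries labelled AMPKa1-/- moved from 14.1, 15.4 and 8.84 FPKM to 57.3, 74.3 and 90.8 FPKM (log2 2.46, SE 0.18, limma adjusted p = 4.21e-12). No LPS library came near a vehicle library in either genotype. Mefv, the pyrin gene, stood at 8.10, 6.18 and 4.59 FPKM in wild-type vehicle and at 46.3 and 31.2 FPKM with LPS (log2 2.45, SE 0.27, limma adjusted p = 8.5e-09). Nlrc4 stood at 3.49, 2.0 and 3.87 FPKM and then at 13.6 and 14.5 FPKM (log2 1.90, SE 0.33, limma adjusted p = 1.77e-05). Aim2 showed the smallest rise of the sensors, from 35.5, 31.8 and 32.3 FPKM to 61.4 and 60.2 FPKM (log2 0.86, SE 0.15, limma adjusted p = 1.33e-05). For all 3 the wild-type LPS libraries lay above every vehicle library. The libraries labelled AMPKa1-/- gave log2 changes of 2.08 (SE 0.24) for Mefv, 0.88 (SE 0.30) for Nlrc4 and 0.39 (SE 0.13) for Aim2, all called by limma, with Nlrc4 lost without LPS replicate 1 (adjusted p = 0.0924) or vehicle replicate 1 (0.11) and Aim2 without vehicle replicate 3 (0.0701).

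Pycard, the adaptor, went the other way. It stood at 20.9, 24.5 and 26.2 FPKM in wild-type vehicle and at 7.05 and 8.82 FPKM with LPS (log2 -1.48, SE 0.20, limma adjusted p = 4.34e-07). The libraries labelled AMPKa1-/- gave 19.3, 19.8 and 23.0 FPKM and then 6.89, 8.29 and 3.44 FPKM, a 3.15-fold fall (log2 -1.65, SE 0.18, limma adjusted p = 6.22e-09). Every LPS library was below every vehicle library. Within single wild-type libraries the ratio of Nlrp3 to Pycard was 0.5 to 0.698 in vehicle and 8.48 to 11.1 with LPS, and the ratio of Casp1 to Pycard moved from 4.51 to 5.93 in vehicle up to 29.1 to 32 with LPS.

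Both inflammatory caspases rose with LPS. Casp1 went from 124, 119 and 118 FPKM in wild-type vehicle to 226 and 257 FPKM, a 1.99-fold gain (log2 0.99, SE 0.14, limma adjusted p = 5.49e-07). Casp4 went from 18.1, 14.1 and 18.0 FPKM to 48.2 and 43.0 FPKM, a 2.64-fold gain (log2 1.40, SE 0.25, limma adjusted p = 1.96e-05). Gsdmd, already abundant, went from 63.8, 65.6 and 67.5 FPKM to 98.2 and 108 FPKM (log2 0.65, SE 0.15, limma adjusted p = 0.000503). The LPS libraries of all 3 lay above their vehicle libraries. In cells labelled AMPKa1-/- the log2 changes were 0.94 (SE 0.12) for Casp1, 1.20 (SE 0.22) for Casp4 and 0.66 (SE 0.13) for Gsdmd, again called.

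Dex alone lowered 6 of the 8 genes in wild-type BMDMs (background 14.9% lower and 15.9% higher, 30.9% in either direction) and 5 of 8 in cells labelled AMPKa1-/- (background 16% lower and 11.9% higher, 27.9% in either direction), and raised none. In wild-type the fall was 3.39-fold for Mefv, 2.09-fold for Pycard and 1.83-fold for Casp1 on the log2(FPKM + 1) scale.

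Mefv stood at 1.28, 1.10 and 0.963 FPKM with Dex, below every vehicle library (log2 -1.76, SE 0.24, limma adjusted p = 1.95e-06). Pycard stood at 10.02, 10.7 and 12.1 FPKM (log2 -1.06, SE 0.18, limma adjusted p = 4.93e-05), and Casp1 at 71.8, 62.0 and 62.6 FPKM (log2 -0.87, SE 0.12, limma adjusted p = 3.42e-06). Casp4 stood at 8.06, 8.95 and 8.98 FPKM (log2 -0.87, SE 0.22, limma adjusted p = 0.00352). Those 4 genes had no overlap with vehicle in wild-type. Nlrp3, at 8.24, 9.997 and 9.73 FPKM (log2 -0.50, SE 0.18, limma adjusted p = 0.0381), and Nlrc4, at 1.42, 1.52 and 0.882 FPKM (log2 -0.84, SE 0.30, limma adjusted p = 0.0318), also lay wholly below vehicle, but with adjusted p-values near the threshold. Their calls were lost without any 1 of the 3 Dex libraries (0.057 to 0.133 for Nlrp3, 0.0506 to 0.109 for Nlrc4) and without vehicle replicate 1 or 3 (0.106 and 0.0877, and 0.0927 and 0.116). Aim2 (log2 0.10, adjusted p = 0.584) and Gsdmd (log2 0.10, adjusted p = 0.605 by limma) did not pass the test.

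In cells labelled AMPKa1-/-, Dex gave log2 changes of -1.44 (SE 0.24) for Mefv, -1.34 (SE 0.30) for Nlrc4, -0.62 (SE 0.12) for Casp1, -0.61 (SE 0.18) for Pycard and -0.58 (SE 0.22) for Casp4, the 5 called there. Pycard was not called without Dex replicate 3 (limma adjusted p = 0.0767) or vehicle replicate 3 (0.0559), and Casp4 (adjusted p = 0.0487), whose libraries overlapped, was lost without any of 23 libraries left out one at a time (0.0505 to 0.241). Nlrp3 had a log2 change of -0.43 (adjusted p = 0.0847), Aim2 of -0.14 and Gsdmd of 0.29, none of them called. The difference between the genotypes is given further down.

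**Figure D2:**
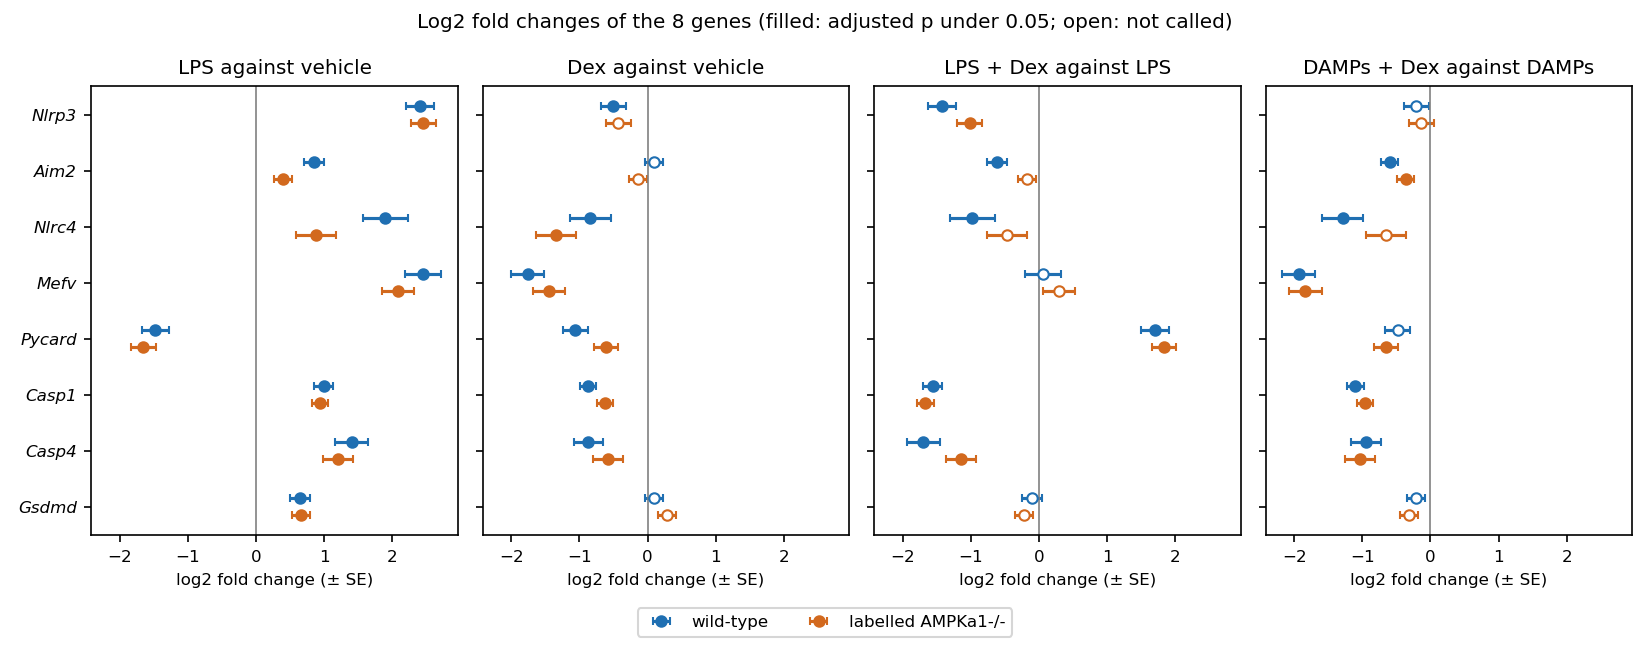
Log2 fold changes with their standard errors (x axis) for the 8 genes (y axis) in 4 comparisons, for wild-type and for libraries labelled AMPKa1-/-, with filled points at a limma adjusted p under 0.05. Pycard is the gene that falls with LPS (-1.48 in wild-type) and rises when Dex is added to LPS (1.70), while Casp1 and Casp4 lie to the left of 0 in all 3 comparisons that add Dex.

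When Dex was added to LPS, the 8 genes split into 3 patterns. The caspases and the sensors Nlrp3, Aim2 and Nlrc4 fell, Pycard rose, and Mefv and Gsdmd did not pass the test in wild-type BMDMs. That is 1 gene higher and 5 lower in wild-type (background 16.6% higher and 17.5% lower, 34.1% in either direction) and 1 higher and 3 lower in cells labelled AMPKa1-/- (background 19.3% and 18.4%, 37.7% in either direction). This comparison shares the LPS libraries with LPS against vehicle, so a high or low LPS library moves both in opposite directions, and the wild-type LPS group has 2 libraries.

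Casp1 stood at 226 and 257 FPKM in wild-type LPS and at 85.3, 78.7 and 78.9 FPKM in LPS + Dex, a 2.95-fold fall (log2 -1.56, SE 0.14, limma adjusted p = 4.87e-10). The libraries labelled AMPKa1-/- gave 226, 179 and 232 FPKM and then 69.9, 73.2 and 55.1 FPKM, a 3.18-fold fall (log2 -1.67, SE 0.12, limma adjusted p = 9.23e-12). Each LPS + Dex library was below each LPS library, and below each vehicle library as well. Casp4 stood at 48.2 and 43.0 FPKM and then at 14.5, 9.95 and 16.4 FPKM, 3.25-fold lower (log2 -1.70, SE 0.25, limma adjusted p = 2.75e-06). Its libraries labelled AMPKa1-/- went from 27.2, 28.2 and 44.2 FPKM to 14.5, 13.8 and 14.0 FPKM (log2 -1.14, SE 0.22, limma adjusted p = 0.00012). Neither pair of Casp4 groups overlapped.

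Nlrp3 fell only part of the way to its resting level. Its LPS + Dex libraries stood at 35.5, 22.4 and 27.5 FPKM in wild-type, 2.67-fold below LPS (log2 -1.42, SE 0.21, limma adjusted p = 2.98e-06), and were still above every vehicle library (log2 0.99, limma adjusted p = 5.14e-05). Those labelled AMPKa1-/- stood at 37.7, 38.0 and 31.3 FPKM, below LPS (log2 -1.02, SE 0.18, limma adjusted p = 5.87e-05) and above vehicle (log2 1.44, limma adjusted p = 1.63e-07). Aim2 stood at 48.0, 38.4 and 33.1 FPKM in wild-type LPS + Dex (log2 -0.61, SE 0.15, limma adjusted p = 0.00146 against LPS). Nlrc4 stood at 10.1, 5.46 and 5.19 FPKM (log2 -0.98, SE 0.33, limma adjusted p = 0.022), a call lost without either LPS library (0.0873 and 0.11) or without LPS + Dex replicate 2 or 3 (0.0804 and 0.0815). Both genes were below LPS in every wild-type library. In cells labelled AMPKa1-/- neither passed the test, with log2 -0.17 (adjusted p = 0.326) for Aim2 and -0.47 (adjusted p = 0.227 by limma) for Nlrc4.

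Pycard was the gene that rose, from its lowest level to one near that of vehicle. In wild-type LPS + Dex it stood at 23.0, 32.3 and 29.2 FPKM, 3.25-fold above LPS (log2 1.70, SE 0.20, limma adjusted p = 1.02e-07). Its libraries labelled AMPKa1-/- stood at 21.6, 24.5 and 24.7 FPKM, 3.57-fold above LPS (log2 1.84, SE 0.18, limma adjusted p = 2.44e-09). All LPS + Dex libraries lay above all LPS libraries and overlapped with vehicle, from which they differed by log2 0.22 (adjusted p = 0.307) and 0.18 (adjusted p = 0.397 by limma). The ratio of Casp1 to Pycard within wild-type libraries fell from 29.1 to 32 in LPS to 2.44 to 3.71 in LPS + Dex.

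Mefv was not called in either direction, and its libraries stayed far above vehicle. It stood at 46.3 and 31.2 FPKM in wild-type LPS and at 50.04, 35.7 and 34.7 FPKM in LPS + Dex, groups that overlapped (log2 0.06, SE 0.27, limma adjusted p = 0.898). The libraries labelled AMPKa1-/- stood at 25.9, 35.7 and 37.3 FPKM and then at 39.7, 50.1 and 32.7 FPKM (log2 0.30, SE 0.24, limma adjusted p = 0.361). Against vehicle, LPS + Dex left Mefv 5.68-fold higher in wild-type (log2 2.51, SE 0.24, limma adjusted p = 7.67e-10) and 5.21-fold higher with the label AMPKa1-/- (limma adjusted p = 1.86e-09). Within wild-type libraries the ratio of Mefv to Nlrp3 was 0.417 to 0.592 in LPS and 1.26 to 1.60 in LPS + Dex. Gsdmd stood at 98.2 and 108 FPKM in LPS and at 90.2, 95.3 and 104 FPKM in LPS + Dex, which overlapped (log2 -0.10, SE 0.15, limma adjusted p = 0.666). With the label AMPKa1-/- it stood at 85.7, 87.3 and 104.6 FPKM in LPS and at 77.1, 84.3 and 74.8 FPKM in LPS + Dex, which did not overlap but did not pass the test (log2 -0.23, SE 0.13, limma adjusted p = 0.191).

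Read from vehicle, LPS + Dex left 4 genes higher and 1 lower in wild-type (background 17.2% higher and 37% lower, 54.2% in either direction). With the label AMPKa1-/- it left 3 higher and 1 lower (background 16.7% and 40.8%, 57.4% in either direction). In either direction the counts were near the background in both genotypes. Nlrp3, Mefv and Gsdmd were higher in both genotypes, and Nlrc4 in wild-type (log2 0.92, limma adjusted p = 0.0101), a call lost without LPS + Dex replicate 1 (0.0802) or vehicle replicate 2 (0.0696). Casp1 was lower in both, by -0.57 (limma adjusted p = 0.000295) and -0.73 (1.07e-05) on the log2 scale, where the median of all genes was -0.23 and -0.28. Aim2 was not called (log2 0.24 and 0.22). In wild-type it was called with libraries centred on one median (limma adjusted p = 0.00161), with quantile normalization (0.00434) and without LPS + Dex replicate 3 (0.0312). With the label AMPKa1-/- it was called with median centring (0.000695) and quantile normalization (0.004). Nlrc4 with that label was not called either (log2 0.40, limma adjusted p = 0.247), but it was with median centring (0.0313) and quantile normalization (0.0151).

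Because Dex moved Pycard down at rest and up under LPS, the difference between the Dex effects was tested directly, a comparison added after the data had been seen. With LPS present, the Dex effect on Pycard was higher by 2.76 on the log2 scale in wild-type (SE 0.27, limma adjusted p = 1.02e-08) and by 2.45 with the label AMPKa1-/- (SE 0.25, limma adjusted p = 2.37e-08). For Mefv it was higher by 1.82 (SE 0.36, limma adjusted p = 0.000286) and 1.74 (SE 0.34, limma adjusted p = 0.00022). For Casp1 the fall was deeper under LPS, by -0.69 (SE 0.18, limma adjusted p = 0.00524) and -1.05 (SE 0.17, limma adjusted p = 3.13e-05). Those 3 genes were called in both genotypes. Nlrp3 (-0.91, SE 0.28, limma adjusted p = 0.0126) and Aim2 (-0.71, SE 0.20, limma adjusted p = 0.00639) were called in wild-type, and Gsdmd (-0.52, SE 0.19, limma adjusted p = 0.0386) with the label AMPKa1-/-. The Nlrp3 call was lost without wild-type LPS replicate 2 (0.0524), and the Casp1 call in wild-type with libraries centred on one median (0.06). With the label AMPKa1-/-, Nlrp3 was called with median centring (-0.66, limma adjusted p = 0.0332) and without LPS replicate 1 (0.0336) or vehicle replicate 2 (0.0456). Casp4 in wild-type was called with only the groups compared (0.0358) and with libraries of one genotype (0.0382). The Gsdmd call was lost, among libraries labelled AMPKa1-/-, without Dex replicate 2 (0.14), LPS replicate 3 (0.116), LPS + Dex replicate 1 or 3 (0.071 and 0.0768) or vehicle replicate 2 or 3 (0.0501 and 0.114). The counts were 2 higher and 3 lower of 8 in wild-type (background 14.9% higher and 17.1% lower, 32% in either direction) and 2 higher and 2 lower with the label AMPKa1-/- (background 15.5% and 12.8%, 28.4% in either direction).

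**Figure D3:**
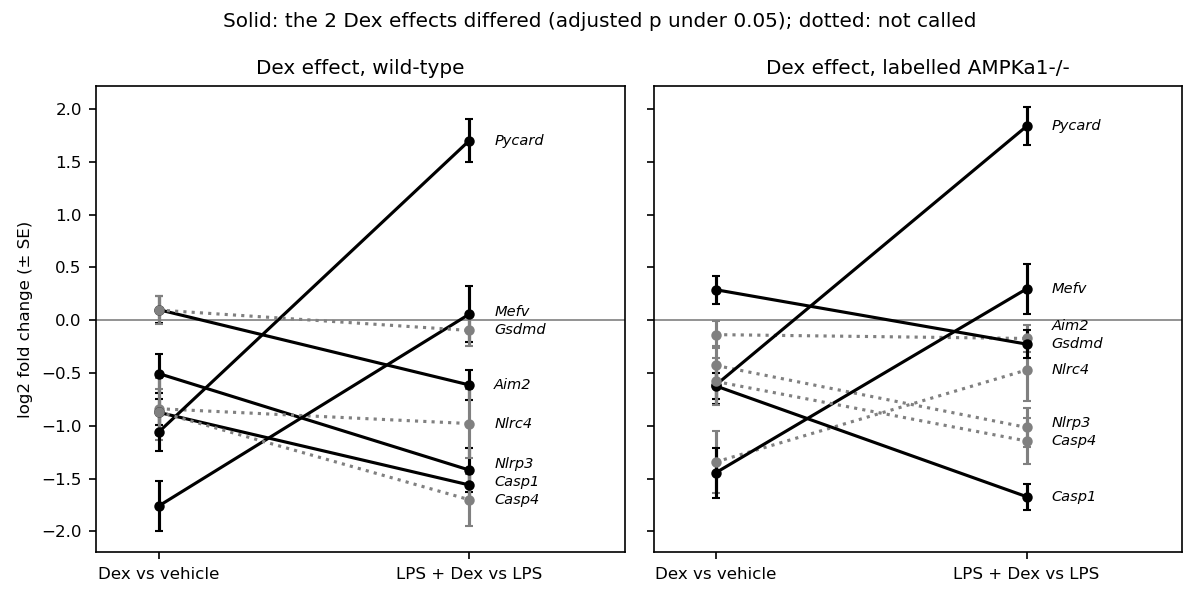
Log2 effect of Dex with its standard error (y axis) without LPS (left of each panel) and with LPS (right), for each of the 8 genes in wild-type and in libraries labelled AMPKa1-/-, with solid lines where the effects differed at a limma adjusted p under 0.05. Pycard crosses 0, from -1.06 to 1.70 in wild-type, and Mefv moves from -1.76 to 0.06.

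DAMPs alone changed few genes. Aim2 and Gsdmd were higher in wild-type, 2 of 8 (background 1.22% higher and 0.793% lower, 2.01% in either direction), and Gsdmd with the label AMPKa1-/-, 1 of 8 (background 1.89% and 2.24%, 4.13% in either direction). Aim2 stood at 51.5, 42.2 and 59.8 FPKM in wild-type DAMPs, above all vehicle libraries (log2 0.60, SE 0.13, limma adjusted p = 0.0123). Gsdmd stood at 78.6, 83.8 and 126 FPKM in wild-type DAMPs (log2 0.51, SE 0.13, limma adjusted p = 0.0387) and at 88.3, 92.1 and 85.7 FPKM with the label AMPKa1-/- (log2 0.60, SE 0.13, limma adjusted p = 0.00576). In each case the DAMPs libraries were above vehicle. DAMPs replicate 3 of wild-type was the highest for both genes, and the interferon-stimulated gene Isg15 stood at 213 FPKM there against 35.6 and 22.9 FPKM in replicates 1 and 2. Without that library neither gene was called in wild-type (limma adjusted p = 0.178 for Aim2 and 0.513 for Gsdmd). Without vehicle replicate 3 neither was called either (0.0639 and 0.108), Gsdmd was also lost without vehicle replicate 1 or 2 (0.135 and 0.0969), and its call with the label AMPKa1-/- was lost without vehicle replicate 3 (0.0596). Nlrp3 stood at 13.2, 9.89 and 11.1 FPKM in wild-type DAMPs, which overlapped with vehicle (log2 -0.24, not called), so that its rise with LPS had no counterpart here.

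Dex added to DAMPs lowered 5 of the 8 genes in each genotype and raised none (background 12.6% lower and 11.7% higher in wild-type, 24.3% in either direction, and 12.2% and 13.1% with the label AMPKa1-/-, 25.3% in either direction). Mefv went from 10.2, 7.48 and 7.13 FPKM in wild-type DAMPs to 1.96, 0.969 and 1.37 FPKM in DAMPs + Dex, 3.82-fold lower (log2 -1.94, SE 0.24, limma adjusted p = 3.65e-07). Casp1 went from 135, 110.5 and 155 FPKM to 67.4, 58.3 and 57.8 FPKM, 2.15-fold lower (log2 -1.10, SE 0.12, limma adjusted p = 6.58e-08). Casp4 went from 21.1, 15.9 and 23.1 FPKM to 7.72, 10.996 and 11.1 FPKM (log2 -0.94, limma adjusted p = 0.00174). None of these groups overlapped. Nlrc4 (log2 -1.29, SE 0.30, limma adjusted p = 0.00148) and Aim2 (log2 -0.60, limma adjusted p = 0.000854) were the other wild-type calls. With the label AMPKa1-/- the 5 were Mefv (-1.84), Casp4 (-1.04), Casp1 (-0.96), Pycard (-0.66) and Aim2 (-0.37), the last with a limma adjusted p of 0.0387 that was lost without any 1 of the 3 DAMPs + Dex libraries (0.0568 to 0.108) or without DAMPs replicate 2 or 3 (0.122 and 0.109).

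Under DAMPs, Pycard did not show the reversal seen under LPS. It stood at 24.3, 21.8 and 24.6 FPKM in wild-type DAMPs and at 14.8, 18.5 and 16.6 FPKM in DAMPs + Dex, all lower but not called (log2 -0.48, limma adjusted p = 0.0511, with 0.0229 to 0.0479 under 5 of the 8 alternative settings, among them 0.0475 with the replicate number as a block). The Dex effect with DAMPs present did not differ by the test from that without DAMPs for any of the 8 genes in either genotype. Over all genes limma called 1 in wild-type and 35 with the label AMPKa1-/- (background 0.00881% and 0.308%), with 1124 and 1167 at an unadjusted p under 0.05.

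In each of the 6 treatments 0 of the 8 genes were called between libraries labelled AMPKa1-/- and wild-type, where the background in either direction was 0.432% for vehicle (0.229% higher and 0.203% lower), 26.5% for Dex (11% and 15.5%) and 0.766% for LPS (0.414% and 0.352%). It was 0.669% for LPS + Dex (0.335% and 0.335%), 0.731% for DAMPs (0.449% and 0.282%) and 1.06% for DAMPs + Dex (0.555% and 0.502%). The Dex background of 3008 genes came down to 304 without wild-type Dex replicate 2 and to 308 without AMPKa1-/- Dex replicate 2. The largest difference was in Nlrc4 with DAMPs + Dex, at 0.564, 0.755 and 0.603 FPKM in wild-type and 2.39, 1.99 and 2.52 FPKM with the label AMPKa1-/-, groups that did not overlap (log2 1.01, SE 0.30, limma adjusted p = 0.119). A pseudocount of 0.1 gave Nlrc4 a log2 difference of 1.70 and an adjusted p of 0.0205. Aim2 with LPS was lower in all libraries labelled AMPKa1-/-, at 37.6, 44.5 and 45.8 FPKM against 61.4 and 60.2 FPKM (log2 -0.51, SE 0.15, limma adjusted p = 0.12). Mefv with Dex stood at 1.33, 1.78 and 2.81 FPKM with the label against 1.28, 1.10 and 0.963 FPKM, without overlap (log2 0.46, SE 0.24, limma adjusted p = 0.138). It was called with median centring (log2 0.62, limma adjusted p = 0.0297) and quantile normalization (0.63, 0.0329).

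The interaction of genotype with treatment, which asks whether the response itself differed, was called for none of the 8 genes in any of 5 responses. The largest interaction was Nlrc4 for LPS against vehicle (log2 -1.02, SE 0.44, limma adjusted p = 0.947), and that for Pycard was -0.18 (SE 0.27). For LPS + Dex against LPS the interactions ran from -0.13 for Gsdmd (SE 0.20) to 0.56 for Casp4 (SE 0.33). Over all genes limma called 0 in each of the 5 responses, with 514, 2441, 311, 66 and 234 at an unadjusted p under 0.05 for LPS, Dex, LPS + Dex against LPS, DAMPs and DAMPs + Dex against DAMPs. With SEs of 0.17 to 0.44 over the 8 genes, these libraries do not show that the genotypes respond alike.

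The other genes of the pathway were taken from 6 lists of 75 genes, of which 73 were in the files and 62 were tested. In wild-type BMDMs LPS raised 30 and lowered 15 of the 62, where it raised 19.9% and lowered 35.8% of all genes tested. Dex added to LPS raised 8 and lowered 33, where the shares of all genes were 16.6% and 17.5% (5 raised and 31 lowered without LPS replicate 2). The median log2 change of the 62 was 0.45 with LPS, where that of all genes was -0.19, and -0.78 for LPS + Dex against LPS, where that of all genes was -0.03. With the label AMPKa1-/- the counts were 28 raised and 16 lowered by LPS (20.2% and 44.1% of all genes), and 9 raised and 34 lowered by Dex with LPS (19.3% and 18.4%). Measured from vehicle, LPS + Dex left 15 of the 62 higher and 22 lower in wild-type (17.2% and 37% of all genes), and the count of those lower is near the background.

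Il1b, whose product caspase-1 cuts, had the largest LPS change of the 62 genes. It stood at 3.77, 5.67 and 5.45 FPKM in wild-type vehicle, at 13932 and 16653 FPKM in LPS and at 211, 38.2 and 292 FPKM in LPS + Dex. Il1b rose with LPS by 11.33 on the log2 scale (SE 0.67, limma adjusted p = 3.72e-14) and fell when Dex was added by 6.82 (SE 0.67, limma adjusted p = 3.53e-09), which left it above every vehicle library. Il18, whose product is cut by the same caspase, stood at 32.4, 27.6 and 26.1 FPKM in vehicle, at 96.8 and 157 FPKM in LPS and at 33.7, 25.0 and 36.9 FPKM in LPS + Dex. Its LPS + Dex libraries overlapped with vehicle, after a rise of 2.07 (limma adjusted p = 3.42e-06) and a fall of 1.94 on the log2 scale (limma adjusted p = 2.06e-05). Il1a rose by 10.23 with LPS and fell by 8.14 with Dex. Of the 6 substrates and cytokines tested, 4 were higher and 1 lower with LPS (19.9% and 35.8% of all genes), and 5 were lower with LPS + Dex against LPS (17.5%).

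The guanylate-binding proteins, interferon-induced GTPases that coat cytosolic bacteria and help caspase-11 and AIM2 to respond, moved together. LPS raised 8 of the 9 tested (19.9% of all genes), with a median log2 change of 4.35, and Dex with LPS lowered all 9 (17.5% of all genes), with a median of -4.04. The same counts, 8 raised and 9 lowered, were found with the label AMPKa1-/- (20.2% and 18.4% of all genes). Gbp2 stood at 7.07, 6.78 and 9.89 FPKM in wild-type vehicle, at 227 and 266 FPKM in LPS and at 19.4, 8.09 and 21.4 FPKM in LPS + Dex. Gbp5 rose by 6.32 with LPS (SE 0.36, limma adjusted p = 1.84e-14) and fell by 4.88 with Dex (SE 0.36, limma adjusted p = 1.34e-11). DAMPs raised 4 of the 9 in wild-type (1.22% of all genes) and 6 with the label AMPKa1-/- (1.89%), and Dex added to DAMPs lowered 8 in each (12.6% and 12.2%). The wild-type DAMPs count was 1 without DAMPs replicate 3, the library high in Isg15, 7 without DAMPs replicate 2 and 2 without DAMPs replicate 1 or any 1 vehicle library. With the label it was 1 without DAMPs replicate 3 or vehicle replicate 3 and 3 without DAMPs replicate 2. With only the groups compared the count was 0 in wild-type and 3 with the label. In wild-type it was 2 without a filter, at a minimum mean of 5 FPKM or within one genotype. Quantile normalization raised the wild-type count to 5 and the replicate block to 6.

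Of the 16 priming and activation genes, 5 were higher and 6 lower with LPS in wild-type (19.9% higher and 35.8% lower of all genes), the count of those lower being near the background. P2rx7, the ATP-gated channel whose opening lets potassium out, stood at 43.7, 38.8 and 42.2 FPKM in wild-type vehicle, at 7.66 and 6.44 FPKM in LPS and at 10.4, 10.8 and 3.78 FPKM in LPS + Dex. LPS lowered it (log2 -2.40, SE 0.28, limma adjusted p = 3.51e-08) and Dex did not bring it back by the test (log2 0.10, limma adjusted p = 0.824). Panx1, an ATP-releasing channel, and Txnip, a thioredoxin-binding protein, were likewise lower with LPS, by -2.80 (SE 0.21) and -2.39 (SE 0.19) on the log2 scale, and still lower with LPS + Dex, by -2.71 and -2.65 against vehicle. Nek7, the kinase that NLRP3 needs to assemble, stood at 35.1, 27.7 and 30.6 FPKM in vehicle, at 14.3 and 14.2 FPKM in LPS and at 28.2, 23.4 and 16.7 FPKM in LPS + Dex. Like Pycard, it fell with LPS (log2 -1.07, limma adjusted p = 1.43e-05) and rose when Dex was added (log2 0.61, limma adjusted p = 0.01), here to a level below vehicle by the test, with overlapping libraries (log2 -0.46, limma adjusted p = 0.0201).

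**Figure D4:**
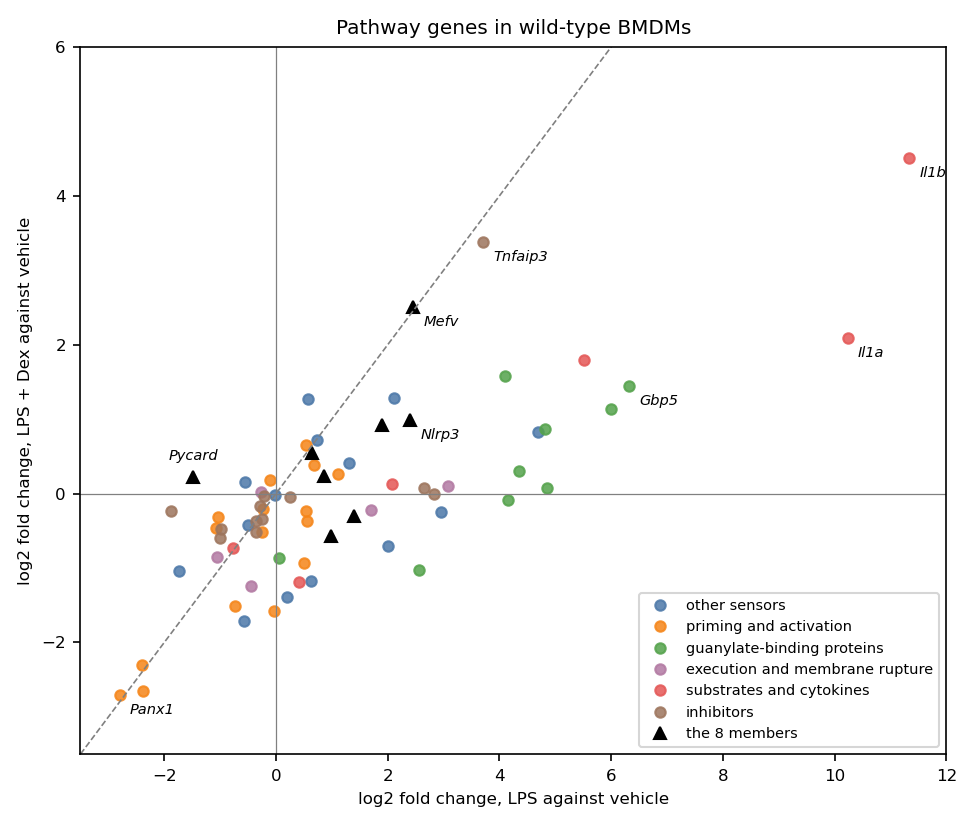
Each point is 1 tested gene in wild-type BMDMs, with its log2 change from vehicle under LPS (x axis) and under LPS + Dex (y axis), coloured by list, triangles for the 8 genes and a dashed line where both changes are equal (both axes share the vehicle libraries). Il1b and Il1a lie far below the line at 11.33 and 10.23 on the x axis, Mefv and Panx1 lie close to it, and Pycard lies above it.

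Of the 14 other sensors tested, 8 were higher and 2 lower with LPS in wild-type (19.9% and 35.8% of all genes), and 3 were higher and 8 lower when Dex was added (16.6% and 17.5%), the count of those higher being near the background. The sensor of Z-form nucleic acids, Zbp1, rose by 4.69 and then fell by 3.86 on the log2 scale, whereas Nlrp1b fell by 0.55 and then rose by 0.72 (limma adjusted p = 0.00139). Among the 12 inhibitors, Tnfaip3, which restrains NF-kB signalling, was higher with LPS (3.71) and with LPS + Dex (3.37) against vehicle. Ptpn22, a phosphatase, fell by 1.87 with LPS and rose by 1.64 with Dex (SE 0.21, limma adjusted p = 2.9e-07). In the execution list, Mlkl (3.08), the pore-forming effector of necroptosis, rose with LPS, and Ninj1, which drives the final membrane rupture, fell by 1.06. Casp12, the neighbour of Casp4, was below 1 FPKM in every library and was not tested.

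Dex alone lowered 13 and raised 4 of the 62 wild-type pathway genes (14.9% and 15.9% of all genes), with Il1rn (log2 -2.49), Gbp3 (-2.04) and Il1b (-1.93, limma adjusted p = 0.0152) lowest, and with Ifi207 (1.33) and Irf2 (1.12), which drives Gsdmd transcription, among those raised. DAMPs raised 9 and lowered 2 (1.22% and 0.793% of all genes), led by Zbp1 (1.72), Gbp8 (1.42) and Gbp2 (1.38), with Panx1 (-0.90) and Txnip (-0.71) lower. Without wild-type DAMPs replicate 3, which stood at 63.0 FPKM for Zbp1 against 19.2 and 10.7 FPKM in replicates 1 and 2, 1 was higher and 0 lower, and all genes called went from 228 to 26. Without DAMPs replicate 2 the counts were 16 and 2, without vehicle replicate 1, 2 or 3 they were 6 and 0, 5 and 1, and 5 and 1, and with only the groups compared 0 of the 62 were called. With DAMPs + Dex against DAMPs, 7 were higher and 25 lower (11.7% and 12.6% of all genes), with Il1rn (-3.16), Gbp9 (-3.09) and Gbp3 (-2.91) lowest, and with Ninj1 (0.92) and Irf2 (0.91) among those raised.

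Other measurements also moved with the LPS + Dex libraries. In bulk RNA, fewer cells of a type and less RNA per cell cannot be told apart. Saa3, an acute-phase gene, took 0.00829% to 0.0344% of summed FPKM in wild-type vehicle, 7.12% to 7.20% in LPS and 16% to 24% in LPS + Dex, and a larger share for 1 gene lowers the values of the others. The 12 neutrophil markers summed to 60.0, 90.6 and 118 FPKM in wild-type vehicle, lowest to highest, to 232 and 290 FPKM in LPS and to 545, 690 and 1225 FPKM in LPS + Dex. Most of the last was S100a8, at 617, 478 and 1147 FPKM, while S100a9 was at 1.03, 0.211 and 0.338 FPKM and the neutrophil surface marker Ly6g did not exceed 0.0683 FPKM in those libraries. The part of Saa3 and of S100a8 in the changes of the 8 genes was not tested. Of the 7 dendritic cell markers listed, 2 had a mean of at least 1 FPKM over all libraries, and Itgax was the most abundant. Itgax stood at 103 to 338 FPKM in wild-type vehicle, at 32.2 to 77.4 FPKM with Dex and at 319 and 448 FPKM with LPS. In wild-type LPS + Dex its mean was 259.9 FPKM. The part of Itgax in these changes was not tested.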

How the data were processed

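RNA of BMDMs was sequenced by Novogene. The authors deposited FPKM values for 47069 Ensembl genes in each of 35 libraries. The submitters' processing notes name TopHat2 2.0.12, Bowtie2 2.2.3, HTSeq 0.6.1, DESeq2 and the builds GRCm38 and mm10, without saying which step used which. Strand settings were not stated there. GENCODE M21 supplied positions, and symbols for 46488 identifiers. FPKM are not counts. Steps of single fragments gave library totals, but only 55.4% to 63.9% of values under 10 fragments were whole numbers (tolerance 0.001), so no counts were recovered and no count test was run.

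Values were tested as log2(FPKM + 1) with limma 3.58.1 in R 4.3.3 (empirical Bayes with trend, 2-sided) for the 11354 genes with a mean of at least 1 FPKM over the 35 libraries, in 1 fit of 12 groups, with Benjamini-Hochberg adjustment over all genes at 0.05. All 12 groups share 1 estimate of the spread, from which wild-type LPS, with 2 libraries, borrows. Comparisons that share a control group share its libraries. The Dex effect with LPS or DAMPs minus that without was added after the data had been seen, as were the counts of pathway genes under other settings. No library pair shared identical values, and replicates correlated at 0.987 to 0.997 across genes.

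The members and the gene lists were chosen with earlier results of these data known. All 8 members are named. Of the other pathway lists, the text names the 3 called genes with the largest change in each direction per wild-type treatment comparison, and Il1b, Il18, P2rx7, Nek7, Naip5 and Gbp2. A few genes that this rule or the likeness measure reaches are not reported here. Casp12, Adgre1, Csf1r, Nlrp1b, Ninj1, Mlkl, Zbp1, Ptpn22, S100a8, S100a9, Ly6g, Itgax, Cd79b, Col1a2, Saa3 and Isg15, where the rule does not reach them, were named after their values were seen. Naip6 was too.

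Pairing by replicate number was checked from how far same-numbered libraries deviated together from their group means: every pair was above 0.1 in 4 of 12 comparisons, all 4 with the label AMPKa1-/- (LPS, Dex and LPS + Dex against vehicle, and LPS + Dex against LPS). What a number marks is not stated. The fits were repeated without a filter, with a minimum mean of 5 FPKM, with a pseudocount of 0.1, after quantile normalization or centring on one median, within the groups compared, within one genotype, with a replicate block and without each library. Figures used matplotlib 3.10.9 and promoter searches Python 3.11.15, in the 250 bases before each RefSeq start.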

Additional observations from a re-analysis of the deposited data

Results flagged for a closer look

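The effect of Dex differed between cultures with and without LPS, by limma's test of the difference on the log2 scale, for 5 genes in wild-type BMDMs. The difference was 2.761 for Pycard (adjusted p = 1.02e-08), 1.817 for Mefv (0.000286), -0.6878 for Casp1 (0.00524), -0.7132 for Aim2 (0.00639) and -0.9142 for Nlrp3 (0.0126). In libraries labelled AMPKa1-/- it differed for 4 genes, by 2.45 for Pycard (limma adjusted p = 2.37e-08), 1.741 for Mefv (0.00022), -1.048 for Casp1 (3.13e-05) and -0.515 for Gsdmd (0.0386). The comparison was added after the Pycard and Mefv values had been seen, and no explanation was tested. The vehicle, Dex, LPS and LPS + Dex libraries are the same as in the single comparisons, so these values are not independent of them.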

How the results depend on the processing

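Over 216 combinations of gene and comparison, 68 of them called, the 8 alternatives and 35 left-out libraries gave 9173 refitted values, with 0 reversals. Leaving out a library outside the groups compared leaves the log2 change as it was, so those values could not reverse. Of the 9173, 9043 kept their side of the threshold, 85 lost a call and 45 gained one. In 117 of the 9043, with neither value called, the sign differed. Counts of called members moved by over 1.5 times as follows, and the cause was not tested. For DAMPs against vehicle in wild-type (2), the count was 1 without a filter and with libraries centred on one median, and 0 with only the groups compared or libraries of one genotype. With the label AMPKa1-/- (1), it was 2 with median centring, quantile normalization, only the groups compared or the replicate block (Mefv, limma adjusted p = 0.0168). For the genotype label it was 1 with DAMPs + Dex at a pseudocount of 0.1 (Nlrc4) and 1 with Dex under median centring or quantile normalization (Mefv), against 0. Leaving out 1 library gave 0 to 2 for DAMPs against vehicle in each genotype, 3 to 6 for Dex against vehicle with the label AMPKa1-/- (5), and 0 to 1 for the Dex effect with DAMPs minus without, in wild-type (Aim2, 0.048, without wild-type DAMPs replicate 2) and with the label AMPKa1-/- (Gsdmd, 0.0477, without wild-type DAMPs replicate 3). Calls of single genes that ended under other settings, beside those given with the results, were Casp4 for Dex with the label AMPKa1-/- (5 settings, 0.0731 to 0.102), Aim2 for DAMPs + Dex against DAMPs with that label (0.0689 without a filter, 0.0535 with only the groups compared), Aim2 and Nlrc4 for LPS + Dex against LPS in wild-type with only the groups compared (0.0696 and 0.0628), Nlrp3 and Nlrc4 for Dex in wild-type without a filter (0.073 and 0.0692) and Gsdmd for the Dex effect with LPS minus without, with the label AMPKa1-/- (4 settings, 0.0524 to 0.128). Where every same-numbered pair correlated above 0.1, the replicate block changed no member's call. Elsewhere it also called Pycard for DAMPs + Dex against DAMPs in wild-type (0.0475) and Casp4 for the Dex effect with LPS minus without (0.0342). A minimum mean of 5 FPKM removed Nlrc4 (mean 4.67).

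Counts over all genes also moved. LPS + Dex against LPS in wild-type fell from 3871 to 2065 with only the groups compared, and DAMPs against vehicle in wild-type from 228 to 1, or to 94 with libraries of one genotype. For the genotype label, no filter gave 92 for vehicle (49), 450 for LPS (87) and 146 for LPS + Dex (76), a minimum of 5 FPKM gave 27 for vehicle and 54 for DAMPs (83), a pseudocount of 0.1 gave 41 for DAMPs, and only the groups compared gave 19 for vehicle, 3 for LPS, 7 for LPS + Dex, 11 for DAMPs and 35 for DAMPs + Dex (120). Interactions, all 0, became 118 for LPS, 21 for Dex, 75 for LPS + Dex against LPS, 2 for DAMPs and 9 for DAMPs + Dex against DAMPs without a filter, and 5 for LPS under the replicate block; the other alternatives gave at most 4. Leaving out 1 library gave at most 13 for LPS (without wild-type LPS replicate 2), 3 for Dex, 2 for LPS + Dex against LPS and 0 for both DAMPs interactions. Over the alternatives, the Dex effect with DAMPs minus without ranged from 0 to 11 in wild-type (1) and from 7 to 112 with the label AMPKa1-/- (35). Leaving out 1 library gave 0 to 39 in wild-type (39 without DAMPs replicate 2) and 0 to 104 with that label (0 without, among others, its DAMPs replicate 1 or 3). DAMPs against vehicle gave 26 without wild-type DAMPs replicate 3 and 372 without replicate 2, and with the label AMPKa1-/- (469) 267 without its vehicle replicate 2. For the genotype label the lowest counts were 28 for vehicle (without wild-type replicate 1 or AMPKa1-/- replicate 2), 304 for Dex (3008, without wild-type replicate 2, and 308 without AMPKa1-/- replicate 2), 9 for LPS (without wild-type replicate 3), 36 for LPS + Dex and 25 for DAMPs (without AMPKa1-/- replicates 1 and 2, respectively) and 49 for DAMPs + Dex (without wild-type replicate 2). Precision is limited for Nlrc4 and Mefv in Dex libraries, where few fragments were read, and for wild-type LPS, with 2 libraries.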

Other observations

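Over the 12 group means of log2(FPKM + 1), the levels of Casp1 and Casp4 followed each other (r = 0.945), as did those of Nlrc4 and Mefv (r = 0.935) and of Nlrp3 and Nlrc4 (r = 0.896), whereas the r of Pycard with the other 7 genes ran from -0.441 to 0.020. These are descriptions over 12 groups that share treatments. By the same measure, Nlrp3 was most like Tma16 and Xkr8 (each 0.992), and the 3 genes most like Mefv were Spata13 (0.994), Pilrb2 (0.993) and Lyn (0.992). Casp1 was most like Ube2l6 (0.977), Gbp9 (0.976) and Hk3, Casp4 like Dpys (0.98), Gbp2b and Pim1 (each 0.978), and Pycard like Gm43672 (0.962), Ccdc69 (0.958) and Fam118b. For Gsdmd the 3 were H2-K1 (0.903), Nupr1 (0.89) and C3 (0.87), for Aim2 Camta2 (0.932), Gm22478 and Olfr99 (0.912), and for Nlrc4 Csf2rb (0.973), Gm3608 and Marcksl1 (0.965).

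Some other pathway genes were called between the genotype labels. Naip5, whose product detects flagellin for NLRC4, stood at 4.60, 3.85 and 4.20 FPKM in wild-type vehicle and at 6.28, 8.55 and 8.14 FPKM with the label AMPKa1-/- (log2 0.72, limma adjusted p = 0.0291), without overlap. This call, the only one higher in vehicle, was lost without wild-type vehicle replicate 1, 2 or 3. It was also lost without AMPKa1-/- vehicle replicate 2 or 3. Naip5 was also higher with Dex (0.69, limma adjusted p = 0.00679), LPS + Dex (0.83, 0.00657) and DAMPs + Dex (1.03, 0.000524). Its LPS + Dex call was lost without AMPKa1-/- LPS + Dex replicate 2. Naip6, a near copy, was lower with Dex (-1.52) and DAMPs + Dex (-1.18), and reads of these paralogs may have been split between them in counting, so both values are uncertain. Txnip stood at 499, 526 and 433 FPKM in wild-type vehicle and at 249, 239 and 182 FPKM with the label AMPKa1-/- (log2 -1.13, SE 0.17, limma adjusted p = 0.000241), and was lower with Dex (-0.92), DAMPs (-0.75) and DAMPs + Dex (-0.99) as well. The Txnip call with DAMPs was lost without any 1 of the DAMPs libraries of either genotype. Panx1 was higher with Dex (0.90) and DAMPs + Dex (0.91). Of the 62 pathway genes, limma called 1 higher and 1 lower in vehicle (0.432% of all genes in either direction), 4 and 6 with Dex (26.5%, or 3008 genes, and 304 or 308 genes without wild-type or AMPKa1-/- Dex replicate 2, where the pathway counts were 3 and 2) and 0 with LPS (0.766%). It called 1 higher with LPS + Dex (0.669%), 1 lower with DAMPs (0.731%), and 2 and 2 with DAMPs + Dex (1.06%). The LPS + Dex count was 0 without AMPKa1-/- LPS + Dex replicate 2. It was 2 higher without wild-type DAMPs replicate 3, wild-type vehicle replicate 2 or AMPKa1-/- Dex replicate 2. Without wild-type LPS + Dex replicate 2 or 3 or AMPKa1-/- LPS replicate 1 it was 1 and 1. The DAMPs count was 0 without any 1 DAMPs library, and 2 lower without wild-type LPS + Dex replicate 3 or AMPKa1-/- Dex replicate 1. With DAMPs + Dex it was 1 and 1 without AMPKa1-/- DAMPs + Dex replicate 2.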
